A study of Mus musculus with 5 samples.

Results

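The 7202 regions described here are sites of β-catenin ChIP enrichment that both captures called in CHIR99021-treated mouse embryonic stem cells, that were shorter than 2000 bp and that held no DMSO peak. They were chosen by the authors' peak intervals. Overlapping or touching intervals of the 3 peak lists were merged into 33485 regions, and a region was kept if it held at least 1 anti-FLAG peak and 1 streptavidin peak from CHIR99021, no DMSO peak and a merged length below 2000 bp. The members were 21.5% of all merged regions and 79.0% of the 9113 regions that both CHIR99021 captures called, named double-capture regions below. Because peak calls made the set, the presence of peaks in both CHIR99021 lists, the absence of a DMSO peak and the short length are descriptions and not results.

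All libraries came from a V6.5 ESC line with a Ctnnb1-Biotin-3xFLAG knock-in, in which endogenous β-catenin carries a FLAG epitope and a stretch that the bacterial ligase BirA biotinylates. Cells grew in serum and LIF on DR4 feeder cells, and a step of settling on gelatinised plates enriched stem cells before 10000000 of them went into each ChIP. The groups were CHIR99021 captured with anti-FLAG, CHIR99021 captured with streptavidin, and the vehicle DMSO captured with streptavidin, each with 1 library, plus an input for each treatment. The labels conflict on the treatment: the treatment label and treatment protocol give CHIR99021 at 3 µM, where the extract protocol prints 3 mM, and both protocols give 16 hours, where the series text names 24 hours. The DMSO capture follows the label, but the name of that peak-calling run says FLAG. An untagged ChIP control was not analysed here, and the data come from 1 engineered line.

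β-Catenin is the transcriptional effector of canonical Wnt signalling. In unstimulated cells a destruction complex that contains the kinase GSK3 marks it for degradation, and CHIR99021 inhibits that kinase, so that β-catenin accumulates and enters the nucleus. It does not bind DNA by itself and reaches chromatin mostly through TCF/LEF factors. In mouse embryonic stem cells Wnt activity is known to favour self-renewal, in part by relieving repression by Tcf7l1.

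Depth sets what could be seen. The anti-FLAG library had 16100920 unique tags and the streptavidin library 11934863, against a shared input with 17758366. How deeply DMSO was sequenced is not known from its header. Its peaks were called with a fragment shift of 30 bp, against 185 and 214 bp for the CHIR99021 lists, so a member is a region without a DMSO call and not a region shown to lack β-catenin in DMSO. With 1 library per group no difference between samples could be tested. Intervals given below are 95% exact intervals that cover counting error only.

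The 10 strongest members had a median length of 1137.5 bp (1069 to 1576 bp), beside a median of 1078 bp in all members. By summed within-list rank of the p score (10 times −log10 of the peak's p-value), the first lay on chromosome 10 (21213793 to 21214933, mm9 as throughout). It held 298 anti-FLAG tags (counting interval 265.1 to 333.8) and 229 streptavidin tags (200.3 to 260.7). Its fold enrichment, the authors' ratio of tags over local background, was 68.38 by anti-FLAG and 57.80 by streptavidin. It ranked 33 among all anti-FLAG peaks and 58 among all streptavidin peaks. The second, on chromosome 12 (4904580 to 4905680), held 286 and 211 tags at fold enrichments of 86.94 and 76.48. The third, on chromosome 2 (13618879 to 13620054), held 276 and 223 tags at 64.46 and 67.36. Chromosome 17 contributed 2 of the first 10. The one at 21511958 to 21513040 had the highest fold enrichment of all members in both lists, 93.76 and 91.65, from 248 and 185 tags. The other at 14438127 to 14439702 had the most anti-FLAG tags of all members, 347, beside 256 by streptavidin.

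The remaining 5 of the first 10 included a pair on chromosome 9, at 22849179 to 22850744 and at 15654975 to 15656052. Another was found on chromosome 18 (17770377 to 17771710), with 218 and 181 tags at 89.77 and 90.06. Chromosome 10 held a further one at 12482257 to 12483390, and chromosome 4 the last, at 64912913 to 64913981. Over the 10 regions anti-FLAG fold enrichment ranged from 51.1 to 93.76 and streptavidin fold enrichment from 42.82 to 91.65. Their summits by the 2 captures lay 2 to 23 bp apart. Of the 5 highest anti-FLAG folds 4 belonged to these regions, as did 4 of the 5 highest streptavidin folds. The remaining one in both cases was a site on chromosome 7 (137209938 to 137211094) with 165 and 158 tags at 69.06 and 84.93. At the other end, a member on chromosome 14 (120707124 to 120708000) held 25 and 20 tags at 5.97 and 7.32, with p scores of 50.10 and 50.96 against a cutoff of 50. The others at the lower end lay on chromosome 2 (146450769 to 146451394, 20 and 18 tags) and chromosome 19 (16016810 to 16018136, 56 and 48 tags). Their fold enrichments, from 4.56 to 7.56, lay well below the range of the first 10.

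Most members were modest peaks. Anti-FLAG tags ran from 14 to 347 with a median of 48, and streptavidin tags from 13 to 297 with a median of 40. The median fold enrichment was 9.73 by anti-FLAG, with quartiles of 7.34 and 13.8, and 10.31 by streptavidin, with quartiles of 7.88 and 14.6. A fold of 10 or more in both lists was reached by 2796 members (38.8%, interval 37.7 to 39.96%), where all double-capture regions gave 42.7%. Neither list reached that fold in 2694 members, anti-FLAG alone did in 669 and streptavidin alone in 1043. A fold of 30 or more in both lists was found in 162 members. For these counts the shares over all double-capture regions were not computed. The 90th percentile of fold was 20.1 by anti-FLAG and 21.2 by streptavidin in members. In all double-capture regions it was 23.5 and 24.6. Member peaks, in regions that cover 8.18 Mb, held 2.54% of unique tags by anti-FLAG and 2.87% by streptavidin. They held 45.1% of all anti-FLAG peaks and 45.3% of all CHIR99021 streptavidin peaks.

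Among members, which both captures had to call, the captures ranked the regions alike. The rule leaves out 6652 regions called by anti-FLAG alone and 6568 called by CHIR99021 streptavidin alone. Tags in both captures also rose with region length, as given below. Across the 7202 regions Spearman's rho between anti-FLAG and streptavidin was 0.826 for tags and 0.742 for fold enrichment, as a description of regions that share the cells, the input and the peak caller. Of the members, 7133 (99.0%) held exactly 1 peak of each list. The median ratio of anti-FLAG to streptavidin tags, each per 1000000 unique tags, was 0.885, and 80% of members lay between 0.607 and 1.29. For 982 members (13.6%) the counting interval of the ratio did not reach the median of all double-capture regions, 0.880, where the same held for 16.9% of double-capture regions. The spread of the ratio changed with strength: in the strongest decile by rank 80% lay between 0.704 and 1.13, in the eighth decile between 0.544 and 1.43 and in the weakest, where both peaks had to sit near the calling cutoff, between 0.630 and 1.20. The median ratio stayed between 0.865 and 0.903 in all 10 deciles. The streptavidin peak was the longer one in 58.5% of members with 1 peak of each list, and per kb of peak the median ratio was 0.926, a setting added after seeing the data.

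**Figure D1:**
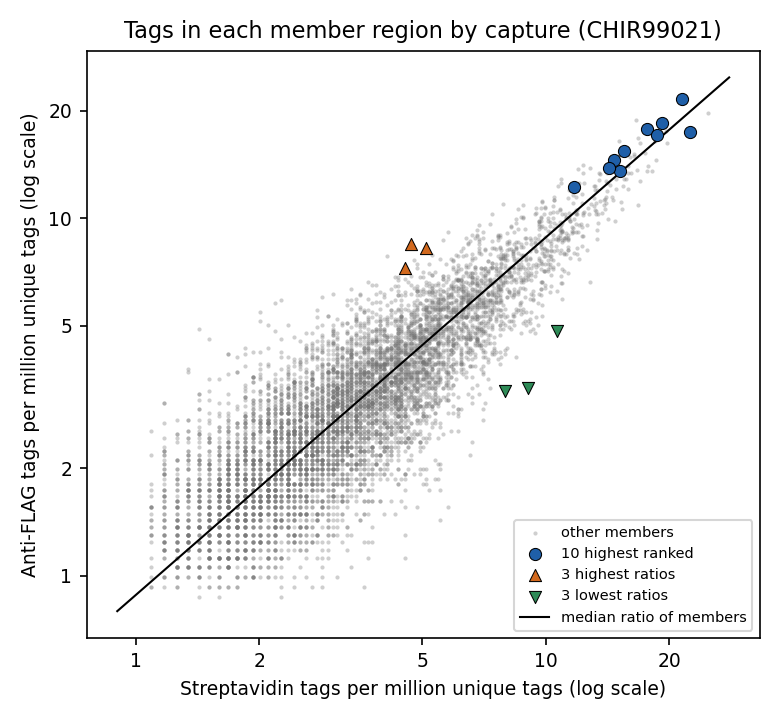
Anti-FLAG against streptavidin tags per 1000000 unique tags in each of the 7202 members, both axes on a log scale, with the median ratio of 0.885 as a line and the regions named in the text marked. The first 10 members by rank sum had ratios from 0.774 to 1.04, with a median of 0.983. They were chosen for high rank in both captures, so closeness of the captures is partly built in. The ratio spread least in the strongest decile by rank, and less in the weakest decile than in the eighth.

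The extremes of the ratio were taken from members with enough tags in both captures. Among the 2259 members with 50 or more tags in both lists the median ratio was 0.855. The highest belonged to a site on chromosome 10 (39978178 to 39979183), which held 136 anti-FLAG tags and 56 streptavidin tags, a ratio of 1.80 (interval 1.31 to 2.50). Its fold enrichment was 17.59 by anti-FLAG and 7.22 by streptavidin, so that it ranked 690 in one list and 4644 in the other. Sites on chromosome 14 (76262524 to 76264373) and chromosome 6 (127056110 to 127057858) followed with ratios of 1.62 and 1.61. The lowest ratio, 0.371 (interval 0.262 to 0.519), was on chromosome 13 (74536273 to 74537894), with 54 anti-FLAG tags and 108 streptavidin tags. There fold enrichment was 4.32 by anti-FLAG and 10.07 by streptavidin. Chromosome 17 (7725870 to 7727111) and chromosome 4 (118697865 to 118699835) held the next, at 0.414 and 0.455. These 6 were picked as extremes of 2259, and the intervals take no account of that.

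Within most members the summits of both captures lay near each other. The summits, where tag density peaked, lay a median of 44 bp apart, within 50 bp in 55.7% and within 100 bp in 80.2% of members. Distances were shorter in stronger members. In the strongest decile by rank the median distance was 26 bp and 95.3% lay within 100 bp, and in the weakest decile it was 67 bp and 64.7%. Summits lay more than 500 bp apart in 155 members (2.15%). These were long and weak: their median anti-FLAG fold was 6.29 and their median length 1639 bp, and 138 of them held 1 peak of each list.

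The nearest relatives of the members are the 922 regions below 2000 bp that both CHIR99021 captures and DMSO called. Those were stronger, with a median fold enrichment of 16.94 in each CHIR99021 list and a median of 97 anti-FLAG tags. Of all 8124 double-capture regions below 2000 bp, 88.7% were members, and this share fell with strength. It was 94.0% (interval 92.1 to 95.5%) in the weakest decile by anti-FLAG fold, 81.0% (78.2 to 83.7%) in the ninth and 61.3% (57.9 to 64.7%) in the strongest decile, where folds reached from 23.0 to 178.86. Ordered by streptavidin fold, the shares were 92.9%, 83.7% and 61.9%. Over the first 5 deciles the share stayed between 93.6 and 95.2% by anti-FLAG fold. In the strongest decile by anti-FLAG fold 498 regions were members and 314 held a DMSO peak.

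**Figure D2:**
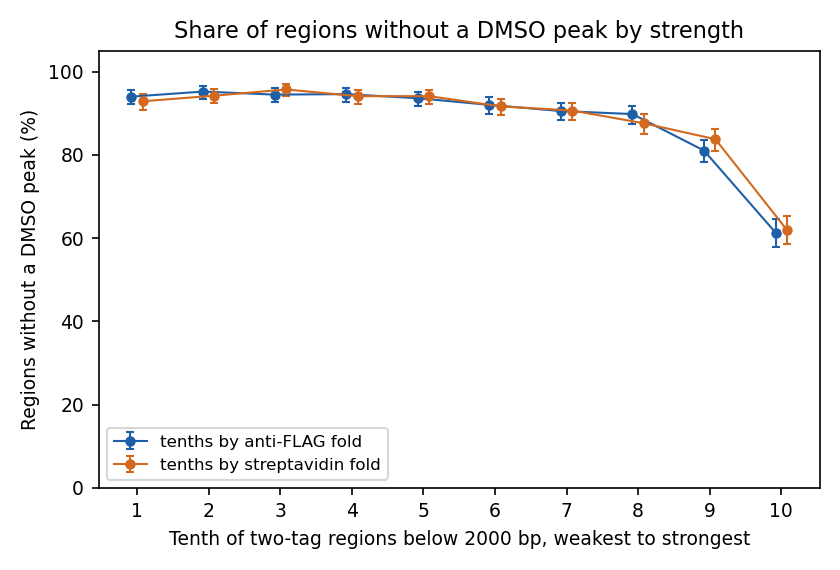
Percentage of double-capture regions below 2000 bp without a DMSO peak in deciles by fold enrichment, from weakest to strongest, with 95% exact intervals. Both orders stay above 90% up to the seventh decile and end at 61.3% and 61.9%.

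Within deciles of strength, summits lay about as close in members as in regions with a DMSO peak, or slightly farther apart in the stronger deciles. Strength can still differ within a decile. The strongest by anti-FLAG fold ran from 23.0 to 178.86, while no member exceeded 93.76. The part of this in the differences below was not tested. In the strongest decile by anti-FLAG fold the median distance was 24 bp in members and 20.5 bp in regions with a DMSO peak. In the eighth decile it was 35 and 32 bp. In the first 5 deciles, with 39 to 52 DMSO-called regions in each, members had the longer distance in deciles 1 and 3 and the shorter one in deciles 2, 4 and 5. In deciles 6 to 10, with 65 to 314 DMSO-called regions in each, members had the longer distance except in the seventh, where both were 35 bp. Ordered by streptavidin fold, the direction was mixed in the lower deciles. Members had the longer distance in each of deciles 6 to 10, from 42 against 32 bp to 26 against 21 bp. Over all strengths the medians were 44 and 29 bp. Length differed within all 10 deciles by anti-FLAG fold. Members had a median of 1149 bp against 1355.5 bp in the strongest decile and 1005.5 against 1204.5 bp in the fifth. A longer region offers more bases in which a DMSO peak can fall, and its part in the difference was not tested.

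**Figure D3:**
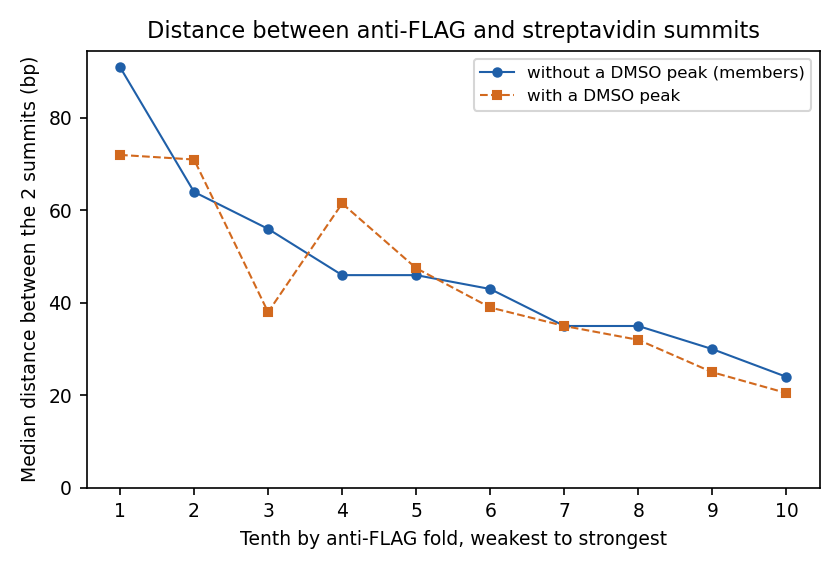
Median distance in bp between the anti-FLAG and streptavidin summits in deciles of double-capture regions below 2000 bp by anti-FLAG fold, for members and for regions with a DMSO peak. Both lines fall with strength, the members' from 91 to 24 bp and the others' from 72 to 20.5 bp.

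Longer members held more tags, while median enrichment changed little with length. The median length was 1078 bp, with 80% between 775 and 1611 bp and the shortest at 378 bp. Between the shortest and the longest of 4 equal groups by length the median went from 29 to 77 anti-FLAG tags and from 23 to 64 streptavidin tags. Over the 4 groups the median anti-FLAG fold was 9.42, 10.29, 10.14 and 9.06. The limit of 2000 bp cut through a continuous range. Of the members 150 lay within 100 bp below it, and 127 regions of the same kind lay within 100 bp above it. Their median anti-FLAG folds were 8.94 and 8.61, and their median streptavidin folds 9.52 and 9.48. The longest member, on chromosome 12 (100566646 to 100568644), measured 1999 bp and held 148 and 138 tags at 9.88 and 7.30. The next lay on chromosome 19 (57440369 to 57442364) and chromosome 4 (53351217 to 53353212), both of 1996 bp. The first region beyond the limit, on chromosome 13 (21871021 to 21873020), measured 2000 bp and held 130 and 71 tags at 10.49 and 5.21. The next ones, both on chromosome 7 (87274131 to 87276131 and 140303923 to 140305923), measured 2001 bp.

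The 731 regions of 2000 bp or more without a DMSO peak held more tags at slightly lower enrichment. Their medians were 122 anti-FLAG tags and a fold of 8.25, against 48 and 9.73 in the members. Summits lay within 100 bp in 71.1% of them (interval 67.7 to 74.4%), and in 80.2% of members (79.2 to 81.1%). The counting interval of the ratio missed the common median in 42.7% (39.1 to 46.4%) of the wide regions, beside 13.6% (12.9 to 14.4%) in members. Neither pair of shares measures agreement: the length that separates these sets by rule also bounds how far apart summits can lie, and more tags make the interval narrower.

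Genome-wide densities below divide by whole chromosome spans, which include sequence where no peak can be called. Overlapping or touching intervals were merged, so no other region can reach a member's edge. This rule bears most on counts within 1 kb. The part of either limit in the differences below was not tested. DMSO peaks were denser near members than over these spans. They stood at 7.91 per Mb (interval 6.51 to 9.52) within 1 kb of a member and at 10.8 (9.15 to 12.7) between 1 and 2 kb, against 4.95 genome-wide. The median distance from a member's edge to the nearest DMSO peak was 58800.5 bp, and 1038 members (14.4%, interval 13.6 to 15.2%) had one within 10 kb. Counting only DMSO peaks of at least 10 tags, the share was 1.49%, but such peaks were rare, at 0.311 per Mb genome-wide. They stood at 0.565 per Mb (interval 0.244 to 1.11) within 1 kb of a member. Between 1 and 2 kb they stood at 1.44 (0.881 to 2.23), or 4.64 times their genome-wide density, where all DMSO peaks stood at 2.18 times theirs. A DMSO peak of any size lay within 1 kb of 114 members (1.58%) and within 0.2 kb of 14. The closest case was on chromosome 12 (118488510 to 118489574), where a DMSO peak of 6 tags (118488421 to 118488508) ended 2 bp before the member. That member held 71 and 50 tags at 19.16 and 18.21. A strong member on chromosome 11 (8540999 to 8542812), with 261 and 236 tags at 34.99 and 40.85, had a DMSO peak of 6 tags 11 bp away. On chromosome 8 (120917758 to 120918849) a DMSO peak of 8 tags lay 51 bp away from a member with 85 and 82 tags. Under the rule an overlap with these DMSO intervals would have removed such regions. Whether the DMSO peaks mark the same sites was not tested. The DMSO peaks nearest to a member within 1 kb were small: 76 of 112 (67.9%, interval 58.4 to 76.4%) held exactly 6 tags, the smallest count in that list, beside 71.3% of the whole DMSO list.

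Regions called in 1 list alone were also denser near members than over whole chromosome spans, with the same limits. Regions called in DMSO alone stood at 6.21 per Mb (interval 4.98 to 7.66) within 1 kb of a member's edge, at 6.05 between 5 and 10 kb and at 4.75 between 50 and 100 kb, where their whole-genome density was 4.21. Without chromosomes 8 and 9, where the DMSO list was dense, the values within 1 kb and genome-wide were 6.05 (4.77 to 7.56) and 3.66. Within 1 kb of the 922 regions that DMSO also called, DMSO-only regions stood at 4.37 per Mb (1.89 to 8.61), an interval that includes the value around members. Regions of anti-FLAG alone reached 5.72 per Mb within 1 kb and 7.43 between 1 and 2 kb, against 2.59 genome-wide. Regions of streptavidin alone reached 6.85 and 6.27, against 2.55. Regions of all 3 lists stood at 0.777 per Mb within 1 kb (11 regions, interval 0.388 to 1.39). Between 1 and 2 kb they stood at 2.96 (41 regions, 2.12 to 4.01), and genome-wide at 0.459. The first interval includes the genome-wide value, but merging may lower counts within 1 kb, so no reading is drawn from that. The excess of regions called in 1 list alone was not particular to members. Within 1 kb of the 922 regions, anti-FLAG-only regions stood at 8.19 per Mb (4.58 to 13.5) and streptavidin-only regions at 9.28 (5.41 to 14.9). Within 1 kb of the 731 wide regions without a DMSO peak, DMSO-only regions stood at 14.6 per Mb (9.07 to 22.4), above the interval around members.

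**Figure D4:**
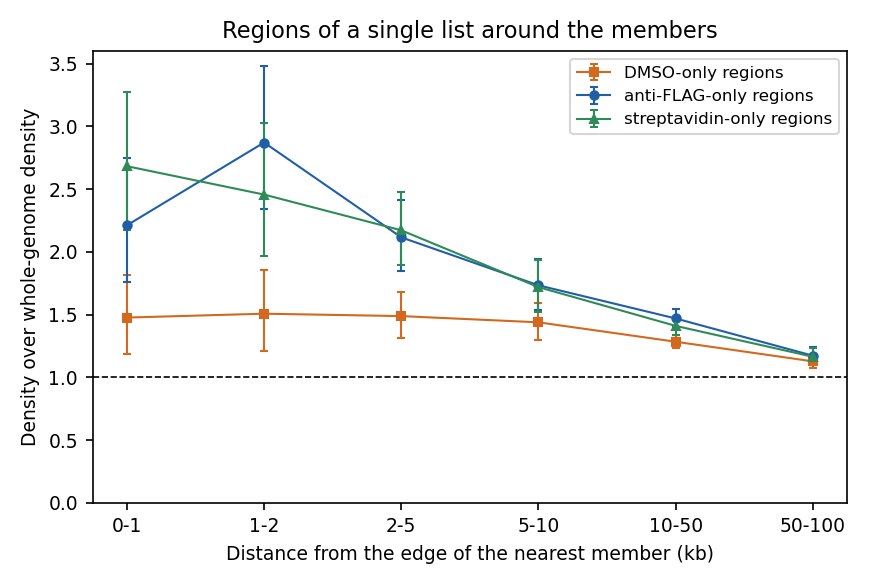
Density of regions called in 1 list alone, divided by their density over the whole genome, by distance in kb from the edge of the nearest member, with 95% exact Poisson intervals. Within 1 kb the values are 1.48 for DMSO-only, 2.21 for anti-FLAG-only and 2.68 for streptavidin-only regions, and by 50 to 100 kb they lie between 1.13 and 1.17.

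Members were found on all 19 autosomes and on X, and none on Y. The autosomes held between 2.28 members per Mb on chromosome 12 and 3.38 on chromosome 11, with a median of 2.95. Chromosome X held 279 members, 1.73 per Mb or 0.587 times the autosomal median. By fold class, this shortfall was largest among members under a fold of 10 in both lists. Those numbered 39 on X, 0.242 per Mb (interval 0.172 to 0.331), which is 0.212 times the autosomal median. Members that reached 10 in 1 list alone stood at 0.646 times the median. Members at 10 or more in both lists numbered 169, 1.05 per Mb (0.896 to 1.22), which is 0.953 times the median. Of the X members 60.6% reached that fold in both lists, beside 28.5 to 42.9% on single autosomes. X members also held fewer tags, with medians of 36 by anti-FLAG (interval 33 to 39) and 29 by streptavidin (27 to 33). On the 17 autosomes other than 8 and 9 the medians were 47 (47 to 48) and 39 (39 to 40). The enrichment of X members was higher, with a median anti-FLAG fold of 12.38 (11.6 to 13.3) against 9.75 (9.54 to 9.94). A peak with fewer tags needs a higher fold to pass the same p-value cutoff, so the fold classes depend on tag number. The part of this in the contrast between fold classes on X was not tested.

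Chromosomes 8 and 9 departed the other way. Their members held medians of 58 (interval 54 to 64) and 57 (53 to 62) anti-FLAG tags and of 50 (47 to 53) and 48 (45 to 51) streptavidin tags. The medians of the 17 other autosomes lay between 45 and 50 anti-FLAG tags and between 37 and 41.5 streptavidin tags. Median anti-FLAG folds were 8.94 (8.45 to 9.62) and 8.68 (8.16 to 9.17), where the other 17 lay between 8.94 and 10.19. Members on these chromosomes were also longer, with medians of 1200 and 1173.5 bp against 1075 bp. Yet their number was ordinary, at 2.72 and 3.08 per Mb. The DMSO list held 1336 and 1286 peaks on chromosomes 8 and 9 against 287 to 894 on the 17 other autosomes. Among double-capture regions below 2000 bp the share of members was 86.0% on chromosome 8 and 85.1% on chromosome 9, and 86.9 to 92.4% on the other 17. The ratio of the captures did not follow this pattern, with medians of 0.891 and 0.882 on chromosomes 8 and 9, 0.880 on X, and 0.858 to 0.927 on the others. No cause of these differences was tested, DMSO peak density included.

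**Figure D5:**
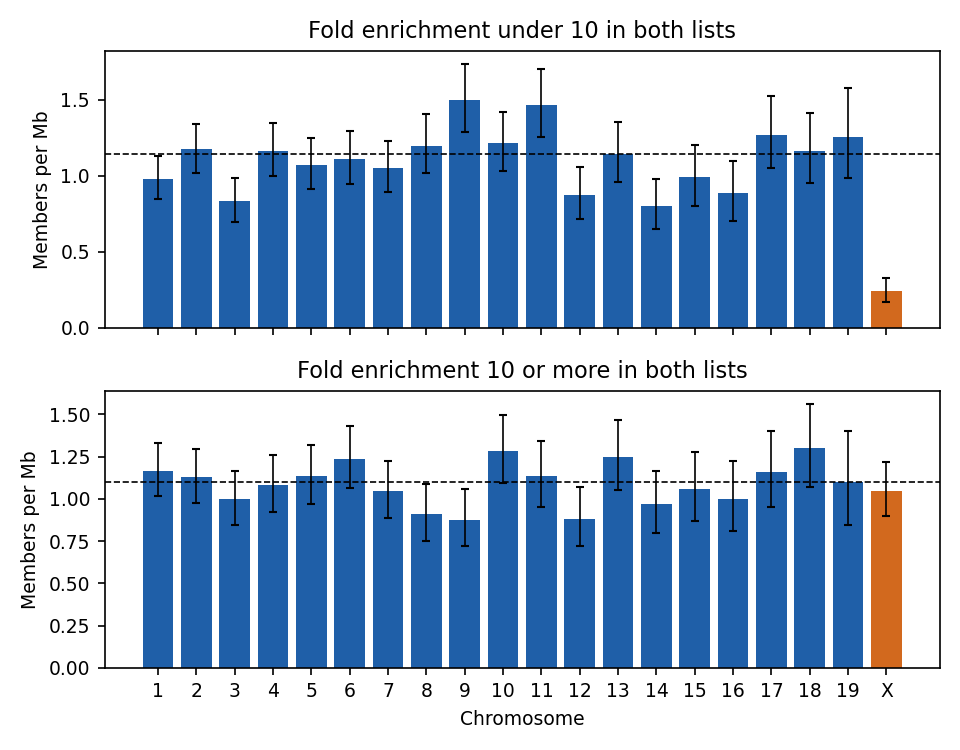
Members per Mb on each chromosome with 95% exact Poisson intervals, for members with a fold under 10 in both CHIR99021 lists (upper) and with 10 or more in both (lower); dashed lines mark the autosomal medians of 1.14 and 1.10. Chromosome X, in orange, stands at 0.242 in the upper panel and at 1.05 in the lower one.

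The median distance to the nearest other member was 75285.5 bp. Another member lay within 10 kb for 1125 members (15.6%, interval 14.8 to 16.5%), within 5 kb for 700 and within 1 kb for 242. Of 2585 windows of 1 Mb, 391 held no member, 1377 held 1 to 3, 711 held 4 to 7 and 106 held 8 or more. The fullest, on chromosome 11 (88000001 to 89000000), held 18 members of low enrichment, with median folds of 6.76 by anti-FLAG and 8.42 by streptavidin. The next held 14 on chromosome 6 (37000001 to 38000000) and 13 on chromosome 13 (44000001 to 45000000), with median anti-FLAG folds of 8.83 and 8.01. A window on chromosome X (7000001 to 8000000) held 12 members at a median anti-FLAG fold of 10.39, far above the mean of 1.73 per Mb on that chromosome.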

How the data were processed

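The authors called peaks with MACS, version not given in the sources used here, from ELAND-format alignments, each ChIP library against 1 input with a p-value cutoff of 1.00e-05, per the file headers. Coordinates are on mm9, as the submitters' processing notes state. For each peak the deposited files hold the count of tags as a whole number, a score (10 times −log10 of p), the ratio of tags to local background as fold, and the FDR as a percent. Folds and scores are the authors' values for single peaks and were used within their list.

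Where a region held several peaks of a list, tags were summed and the other values came from the peak of highest p score. Tags per 1000000 divide by the unique tags of the headers. Ratio intervals are exact conditional binomial intervals, those of densities exact Poisson, those of shares exact (Clopper-Pearson), and those of medians from binomial order statistics. Densities take each chromosome as reaching from its lowest to its highest peak position. Regions were named by a rule: the 10 smallest rank sums, the 3 largest, the 5 highest folds per list, the 3 on either side of 2000 bp, the 3 nearest a DMSO peak, the 3 highest and 3 lowest ratios, and the fullest 1 Mb window. Windows beyond the fullest were named after their values were seen. Members, lists and rules were chosen with earlier results of these data known. The region code recovered 1200 of 1200 regions planted in simulated lists. This checks the code and not the calls: the planted regions lay far apart, and lengths near 2000 bp were not planted. No genome or gene table of build mm9 was used here, so no sequence, motif or gene was assigned. Software was scipy 1.17.1, numpy 2.4.6, matplotlib 3.10.9 and pandas 2.3.3 under Python 3.11.15.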

Additional observations from a re-analysis of the deposited data

How the results depend on the processing

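The 7202 members became 3353 at a p score of at least 100 and 2808 at a fold of at least 10 in the CHIR99021 lists; of these, 3337 and 2798 overlapped a member. The other 10 settings gave 4822 to 7841. The share at a fold of 10 or more in both lists, 38.8%, was 73.1% at that score, 100.0% by construction at that fold, 54.4% at an FDR of at most 1% and 40.8% when only DMSO peaks of at least 10 tags removed a region. The median summit distance of 44 bp was 34, 31 and 39 bp under those 3 peak limits. The share with a DMSO peak within 10 kb, 14.4%, was 13.16% below 1500 bp, 12.75% at a fold of 10, 13.04% when a DMSO peak within 1000 bp removed a region and 13.21% without chromosomes 8 and 9. It was 1.56% when only DMSO peaks of at least 10 tags counted throughout and 1.49% when they counted for the distance alone. The median spacing of 75.3 kb was 79.1 kb with intervals up to 200 bp apart joined, 96.4 kb below 1500 bp, 68.6 kb below 2500 bp, 181.2 kb at a score of 100, 233.8 kb at a fold of 10, 119.8 kb at an FDR of 1% and 67.99 kb with DMSO peaks of at least 10 tags. Fewer or more members enter under each of these. The density of X over the autosomal median, 0.587, stayed between 0.558 and 0.953, the latter at a fold of 10. The median ratio stayed between 0.869 and 0.926. The 400 bp DMSO windows left 7190 members. Other windows and distances for sequence and genes, and mm9 chromosome lengths, were not run, since no mm9 reference was used. No paired analysis was possible because there was only 1 library in each group. How deep the DMSO library is limits every statement on regions without a DMSO call.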
